A study of Mus musculus with 50 samples.

Results

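The genes described here encode the subunits of respiratory complex I, the NADH:ubiquinone oxidoreductase of the inner mitochondrial membrane. Members were the rows of the count table whose Ensembl identifier belongs to a protein-coding mouse gene with a symbol of the Ndufa, Ndufb, Ndufc, Ndufs or Ndufv series, together with the mitochondrial genes mt-Nd1 to mt-Nd6 and mt-Nd4l, and without the Ndufaf assembly factors. This gave 44 genes of 37469 rows, 37 nuclear and 7 mitochondrial, and all 44 passed the filter on low counts. Ndufs6b, Ndufb1-ps, Ndufb4c and Ndufa11b carry such symbols but are annotated as pseudogenes or as a non-coding transcript and were left out. Ndufab1, the acyl carrier protein that is also a subunit, is not matched by the symbols and is given only once below.

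Complex I takes electrons from NADH through a flavin and a chain of iron-sulfur clusters in an arm that reaches into the matrix, passes them to ubiquinone, and pumps protons through an arm in the membrane. The nuclear core subunits carry the flavin and the clusters, the core subunits encoded by mitochondrial DNA form the pumping membrane arm, and accessory subunits surround both. Skeletal muscle is rich in mitochondria, so tumors that grow in muscle can carry such transcripts from muscle fibers as well as from sarcoma, stromal and immune cells.

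Whole p53/MCA sarcomas of mice were profiled by RNA-seq of polyadenylated RNA. Primary tumors (n = 32) arose in the gastrocnemius of 129/SvJae Trp53 fl/fl mice aged 6 to 10 weeks, after an injected adenovirus with Cre recombinase deleted Trp53 in cells at that site and 300 µg of the carcinogen 3-methylcholanthrene (MCA) was given. Transplant tumors (n = 16, called allografts in the labels) grew from 50000 injected cells of line 402230, a single p53/MCA sarcoma line, in the same muscle of syngeneic mice, so that all of them descend from 1 line while each primary tumor arose on its own. Each model received 0 or 20 Gy to the hind limb and 200 µg of either the anti-PD-1 antibody muDX400 or an isotype control, which made 4 treatments with 8 primary and 4 transplant tumors in each, harvested 3 days later. One further tumor library and 1 cell line library of 402230 entered no comparison.

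The 48 tumor libraries held 31810500 to 54008300 counts, with a median of 41178500. Acta1, skeletal muscle actin and the control for muscle content, ranged from 1.16 to 14.24 as log2 CPM, where CPM is the count of a gene scaled to the size of its library. The summed level of 11 skeletal muscle markers ran from 14.4 to 79578 CPM in primary tumors (median 1593) and from 80.1 to 20190 CPM in transplants (median 5234), with none of these markers at 0 in any library. In whole tumors, fewer cells of a type and less RNA per cell cannot be told apart. The p-values measure the spread between these tumors.

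A pair of sequence comparisons is shown first because they bear on which of the counts below belong to the member itself. Ndufs5 (GRCm38, chr4:123712710-123718202, minus strand) encodes a small accessory subunit on the intermembrane-space side of the membrane arm. The processed pseudogene BC002163 (chr16:42955631-42955949, plus strand) matched 319 of the 680 bases of the Ndufs5 transcript at 99.4% identity. The match covers the whole coding part of the Ndufs5 transcript, and the only mismatches were T328C and A352G, with positions counted from 1 at the 5′ end of the transcript, the Ndufs5 base first and the BC002163 base last. Both lie in exons, at 123715999 and 123715975 of chromosome 4. In the stretch of positions 314 to 366, with capitals at these bases, the sequences are:
Ndufs5: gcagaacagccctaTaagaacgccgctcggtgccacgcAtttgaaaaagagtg
BC002163: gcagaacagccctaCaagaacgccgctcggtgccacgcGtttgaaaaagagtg

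The mitochondrial gene mt-Nd3 (chrM:9459-9806, plus strand), a small subunit at the junction of the arms, has a nuclear copy of mitochondrial DNA, Gm28438 (chr1:24612775-24613119, minus strand). The copy matched 345 of 348 bases at 99.7% identity, with T3C as the only difference. The first 17 coding bases, with the differing base in capitals, are:
mt-Nd3: atTaacctgtacactgt
Gm28438: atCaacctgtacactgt

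The same stretch of chromosome 1 holds Gm10222 and Gm28439. Gm10222 matched 294 of 297 bases of mt-Nd4l and Gm28439 matched 876 of 1378 bases of mt-Nd4, both at 100%. A read from such a stretch cannot be told apart by its sequence. Levels of mt-Nd3 and mt-Nd4l are therefore uncertain, as is the part of the mt-Nd4 level that comes from the shared bases. Partial copies of lower identity were found for mt-Nd2 (Gm13339, 96.7%) and mt-Nd5 (Gm4076, 95.2%), and none of at least 95% identity over 100 bases for mt-Nd1 and mt-Nd6.

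Promoter sequence was available for 32 of the 37 nuclear members (RefSeq, GRCm38.p6, 250 bases before to 50 after the annotated start). The word AAGATGGC, which holds the core bound by the factor YY1, was searched on both strands. The word also holds the letters ATG, and its place relative to the start of translation was not examined. It occurred in 7 of the 32 genes (21.9%) and in 3.19% of 27025 genes. All 7 occurrences were on the strand of the gene and began 23 to 39 bases after its start, which is why the stretches around them are shown, with the word in capitals (Ndufa9, chr6:126849099-126849124, minus strand; Ndufs7, chr10:80249464-80249489, plus strand; Ndufs6, chr13:73328433-73328458, minus strand; Ndufs4, chr13:114388045-114388068, minus strand; Ndufc1, chr3:51408917-51408942, minus strand; Ndufa3, chr7:3617386-3617411, plus strand; Ndufb8, chr19:44555393-44555413, minus strand). The members that hold it belong to the nuclear core (Ndufs7), to the accessory subunits of the matrix arm (Ndufa9, Ndufs6, Ndufs4) and to those of the membrane arm (Ndufc1, Ndufa3, Ndufb8).
Ndufa9: ttgtgggagAAGATGGCggccgccgt
Ndufs7: gccgaggccAAGATGGCggcgctggc
Ndufs6: gtcaccggcAAGATGGCggcggtgct
Ndufs4: gcctacaggAAGATGGCggcggtc
Ndufc1: ctgcggaacAAGATGGCgccgtccgt
Ndufa3: gccaagaacAAGATGGCcgggagtaa
Ndufb8: gagaaggtgAAGATGGCtgcc

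Of the other words searched on both strands, GCATGCGC, from the site of NRF1, was in 9.38% of member genes and 3.05% of all, and CCGGAAGT, the ETS word, in 3.12% and 4.31%. ACGTG, the hypoxia core, was in 18.8% and 21.8%, TCACGTGA, which contains ACGTG, in 3.12% and 1.12%, and CCAAT in 31.2% and 41.1%. These are matches of letters in a window and are not measured binding.

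Levels were compared between genes as CPM per kilobase of annotated exon, as the median over the 48 tumors. Mitochondrial core subunits were the most abundant. mt-Nd1, which lines the quinone chamber, stood at 960, followed by the antiporter-like pump subunit mt-Nd2 at 581, mt-Nd6 at 535, the pump subunits mt-Nd5 at 534 and mt-Nd4 at 313. mt-Nd4l at 2.29 and mt-Nd3 at 1.41 were far lower, and their nuclear copies Gm10222 and Gm28438 had median levels of 0.889 and 2.15 CPM beside 0.679 and 0.492 CPM for mt-Nd4l and mt-Nd3. The 37 nuclear members had a median of 37.2.

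Among nuclear members, Ndufa2, a matrix-arm accessory subunit, led with 137.4 CPM per kilobase, ahead of Ndufa1 at 107.2 and Ndufa4 at 105.7. Ndufa4 was first purified with complex I and is now placed in complex IV. By role, the median was 33.3 for the 7 nuclear core subunits, 43.0 for the 9 matrix-arm accessory subunits and 54.8 for the 19 membrane-arm accessory subunits. Within the core, Ndufs1, the large subunit that carries several iron-sulfur clusters, was lowest at 8.66. Ndufb2 was the lowest nuclear member at 0.627, and it shares exon sequence with the annotated genes Braf and Gm42420, so its count is uncertain. The value per kilobase also depends on how much rarely used exon is annotated, which for Ndufs1 came to 8086 bases.

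**Figure D1:**
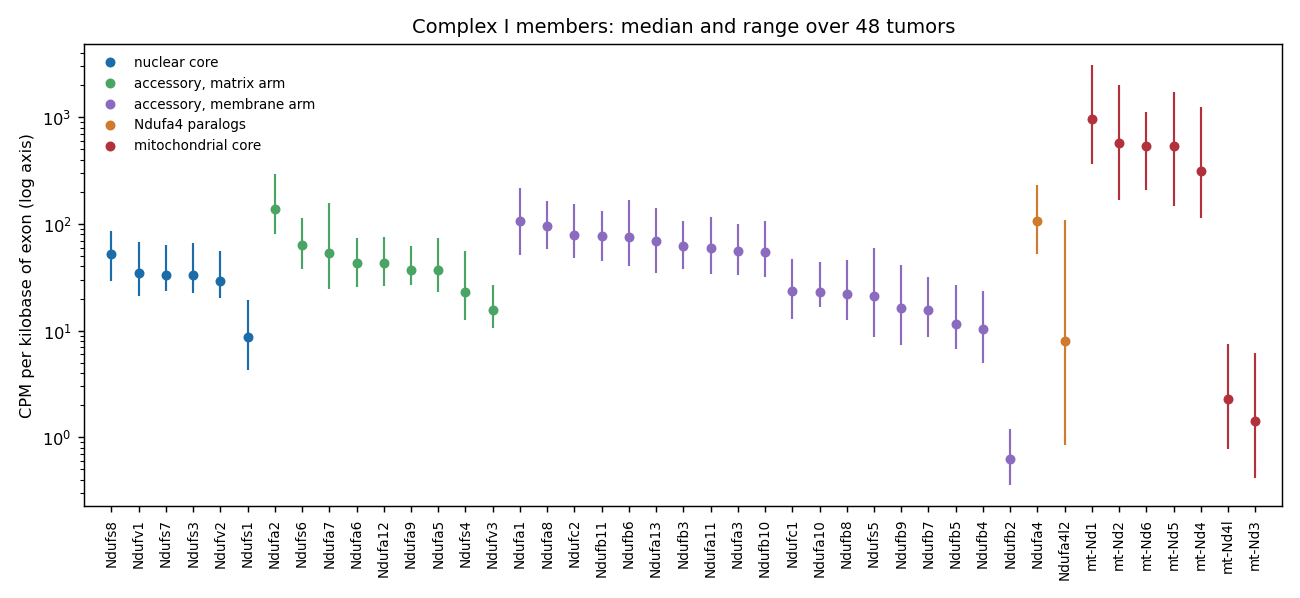
Level of 43 members in CPM per kilobase of exon (log axis), with the point at the median and the line from the lowest to the highest of 48 tumors, colored by role. Of the 7 mitochondrial core genes, 5 have medians of 313 to 960, while mt-Nd4l and mt-Nd3 lie at 2.29 and 1.41, and the line of Ndufa4l2 is the longest among the nuclear members.

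The 7 mitochondrial members together took 0.107% to 0.989% of all counts in a library (median 0.325%), and the 37 nuclear members 0.169% to 0.399% (median 0.235%). The ratio of mitochondrial to nuclear member counts ran from 0.330 to 3.59, with a median of 1.46. Primary tumors covered this whole range, from 0.330 to 3.59, and transplants ran from 0.572 to 3.51. Mitochondrial transcripts thus varied more between tumors than nuclear ones. The SD of log2 CPM within groups had a median of 0.62 over the mitochondrial members and 0.44 over the nuclear members, and was 0.33 over the nuclear core. Among the nuclear members the least steady were Ndufa4l2 (SD 1.28) and Ndufs5 (SD 0.67).

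Nuclear members rose and fell together across the 48 tumors. Over 666 pairs of nuclear members the median Pearson r of log2 CPM was 0.81, with a range of -0.28 to 0.97, and 0.83 once group means were removed. The mean r of a member with the other nuclear members was lowest for Ndufs1 (0.04), Ndufa4l2 (0.14), Ndufs5 (0.28), Ndufv1 (0.37), Ndufb2 (0.45) and Ndufa10 (0.47). Ndufs1 and Ndufv1 are neighbors in the NADH-oxidizing end of the matrix arm, and Ndufv1 binds NADH and the flavin. The genes whose log2 CPM was most like the mean of the nuclear members over the 48 tumors were small subunits of complexes III, IV and V: Uqcr11 (r = 0.969), Cox6b1 (0.966), Atp5k (0.962), Atp5h (0.962) and Atp5e (0.952). These values share libraries, depth and transcript length. The median r of other coding genes with the nuclear mean was 0.28 for genes with under 1000 bases of exon and -0.17 for those of 4000 bases and over.

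mt-Nd1, mt-Nd2, mt-Nd4 and mt-Nd5 followed each other closely, with no pairwise r below 0.97, whereas mt-Nd6 had r of 0.44 to 0.59 with the other mitochondrial members. mt-Nd6 is the only protein-coding gene on the light strand of mitochondrial DNA (chrM:13552-14070), and its end overlaps that of mt-Nd5 (chrM:11742-13565) on the other strand. Whether counting used the strand is not given in the sources used here. Outside complex I, the genes most like the mitochondrial mean were mt-Cytb (r = 0.976) and mt-Co1 (0.943), followed by the nuclear copies Gm28439 (0.937), Gm10222 (0.917) and Gm10925 (0.913). Reads of Gm28439 and Gm10222 cannot be told by sequence from those of mt-Nd4 and mt-Nd4l, so their likeness is not independent of these members. The means of nuclear and mitochondrial members had r = 0.24 over the 48 tumors.

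The first comparison asked how the tumor models differ, as the mean of transplant minus primary over the 4 treatments. All 16 transplants grew from line 402230. A trait of that line cannot be told apart from a difference between the models, here or within each treatment. Ndufs5 and Ndufa4l2 were lower in transplants, and no member was higher. In edgeR's quasi-likelihood test with Benjamini-Hochberg adjustment over 19327 genes, 2 of 44 members were called, which is 0 higher and 2 lower, with 7 members at an unadjusted p under 0.05. Of all genes tested 34.8% were called, 15.7% higher and 19.1% lower, so the share of members called lay below this background. The median log2 difference was 0.05 over the nuclear members, of which 24 of 37 were positive, 0.39 over the 7 mitochondrial members, of which 6 were positive, and -0.00 over all genes. In the same comparison all 5 T cell markers were higher in transplants, with a median of 1.34 and summed levels of 2.19 to 175 CPM in primary tumors and 33.1 to 168 CPM in transplants, and the part of T cells in the members' values was not tested.

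Ndufs5 had 9.18 CPM in the lowest, 26.6 in the median and 51.2 in the highest primary tumor, and 7.46, 11.6 and 22.2 CPM in the transplants. The transplants filled the lower part of the primary range and the models overlapped, since 12 of 32 primary tumors lay at or below the highest transplant and 3 of 16 transplants lay below every primary tumor. The log2 difference was -1.11 (SE 0.20), with an edgeR adjusted p of 3.39e-05, and it ranged from -1.20 to -1.06 when single tumors were left out. By treatment, the transplants had 13.2, 9.96, 8.28 and 14.8 CPM after 0 Gy with isotype, and 14.2, 13.1, 11.7 and 10.6 CPM after 0 Gy with anti-PD-1. They had 10.1, 13.6, 11.6 and 8.76 CPM after 20 Gy with isotype, and 22.2, 10.5, 13.5 and 7.46 CPM after 20 Gy with anti-PD-1. A single transplant, at 22.2 CPM, stood apart from the other 15, which lay between 7.46 and 14.8 CPM.

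The pseudogene shown above went the other way. BC002163 had 0.457 CPM in the lowest, 20.5 in the median and 61.8 in the highest primary tumor, and 19.2, 33.1 and 53.0 CPM in the transplants, with a log2 difference of 0.80 (SE 0.26, edgeR adjusted p = 0.0153). The sum of Ndufs5 and BC002163 was 47.0 ± 14.5 CPM (SD, n = 32) in primary tumors and 47.0 ± 11.7 CPM (SD, n = 16) in transplants. With the counts of both summed into 1 row, an alternative chosen after seeing the data, the log2 difference was 0.00 (SE 0.12, edgeR adjusted p = 0.986). The lower count of Ndufs5 in transplants was thus not seen in the summed count, and how reads were divided between the gene and its copy was not tested.

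BC002163 made up 59.5% to 80.0% of the summed CPM in the 16 transplants, with a median of 74.2%. In the 32 primary tumors the share fell in separate ranges. It was 1.03% and 1.31% in 2 tumors, 31.97% to 40.1% in 21 tumors and 70.6% to 74.3% in 9 tumors, with no tumor between 40.1% and 70.6%. The 2 lowest were replicate 2 of 0 Gy with isotype and replicate 6 of 20 Gy with anti-PD-1. The upper range held none of the 8 primary tumors given 0 Gy with isotype, 4 of 8 given 0 Gy with anti-PD-1, 2 of 8 given 20 Gy with isotype and 3 of 8 given 20 Gy with anti-PD-1. These ranges were read from the data, and nothing was tested between them. In line 402230, from which the transplants grew, BC002163 had 1342 counts beside 328 of Ndufs5 in the cell line (80.4%) and 1408 beside 280 in the tumor library (83.4%).

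**Figure D2:**
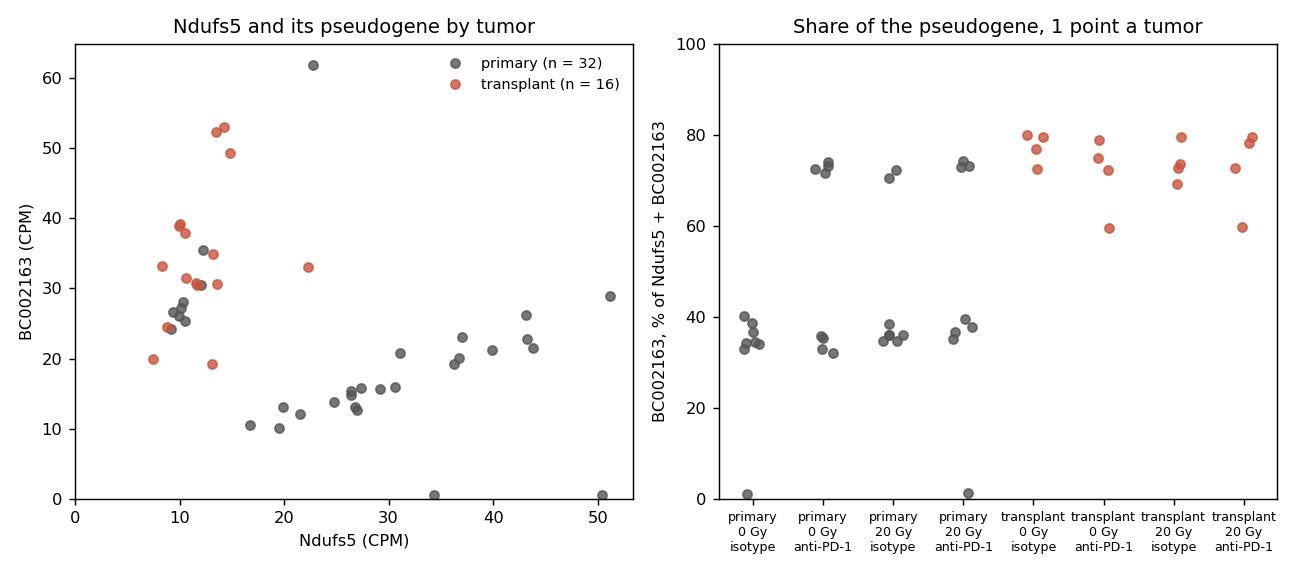
Left, Ndufs5 against its pseudogene BC002163, both in CPM, 1 point for each of 32 primary (gray) and 16 transplant (orange) tumors. Right, the share of BC002163 in the sum of both, in percent, by group, with primary tumors near 1%, at 31.97% to 40.1% or at 70.6% to 74.3% and transplants at 59.5% to 80.0%.

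Ndufa4l2 (chr10:127514967-127517154, plus strand) is the paralog of Ndufa4 and is known as a gene induced by hypoxia and expressed in pericytes. It had 0.936 CPM in the lowest, 10.6 in the median and 119.8 in the highest primary tumor, and 0.993, 4.59 and 13.3 CPM in the transplants. Transplants were confined to the lower part of the primary range, with 20 of 32 primary tumors at or below the highest transplant and no transplant below every primary tumor. The log2 difference was -1.98 (SE 0.44, edgeR adjusted p = 4.08e-04), and it stayed between -2.14 and -1.66 with any 1 tumor left out. It was -1.61 with Acta1 as a covariate, with an adjusted p of 0.00465.

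The primary tumors with the highest levels, 118.5 and 119.8 CPM, were replicate 3 of 20 Gy with isotype and replicate 5 of 20 Gy with anti-PD-1. Transplants given 0 Gy had 1.41, 4.83, 5.45 and 4.35 CPM with isotype and 7.23, 2.91, 13.3 and 2.46 CPM with anti-PD-1. Those given 20 Gy had 0.993, 5.11, 5.64 and 1.22 CPM with isotype and 2.23, 9.95, 6.23 and 3.65 CPM with anti-PD-1. Of all genes tested 19.1% were called lower in transplants. Among the pericyte and smooth muscle markers 3 of 8 were lower (Cspg4 by -2.06, Acta2 by -1.88 and Pdgfrb by -1.07 on the log2 scale). The other 5 markers were not called, and the median over all 8 was -0.38, with 1 positive. Their summed level was 211 to 1495 CPM in primary tumors and 170 to 489 CPM in transplants, with none at 0 in any library. Of the 12 hypoxia genes, 0 were called by edgeR, and 0 had an unadjusted p under 0.05. The part of these cells in the Ndufa4l2 result was not tested. Ndufa4 itself had a log2 difference of -0.00 (SE 0.17, adjusted p = 0.993).

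The mitochondrial members had positive differences that did not pass the threshold. mt-Nd5 had 269, 884 and 2879 CPM in the lowest, median and highest primary tumor and 440, 1158 and 3128 CPM in the transplants, and the models overlapped over nearly their whole range. Its log2 difference was 0.47 (SE 0.20, adjusted p = 0.0600). The differences were 0.44 for mt-Nd2, 0.40 for mt-Nd4, 0.39 for mt-Nd1, 0.35 for mt-Nd4l and 0.20 for mt-Nd3, with adjusted p of 0.0727 to 0.494, and that of mt-Nd6 was -0.02. Markers of muscle lay higher in transplants by a median of 0.54 with 0 of 11 called by edgeR and 0 at an unadjusted p under 0.05. Adipocyte markers differed more, with 6 of 6 at an unadjusted p under 0.05, Cidec of the lipid droplet called higher (1.71), Ucp1 of brown fat called lower (-3.80) and a median of 1.56. Their summed level was 0.227 to 95.3 CPM in primary tumors and 0.119 to 139.1 CPM in transplants, and 5 of the 6 were at 0 in some library. With Acta1 as a covariate the median over the mitochondrial members was 0.26 in place of 0.39, and the part of fat cells was not tested.

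Single tumors decided these calls. Without replicate 4 of the primary tumors given 20 Gy with anti-PD-1, which had the highest Acta1 (14.24) and the highest mt-Nd1 level of all primary tumors (2966 CPM), 9 members were called. Those that were higher included mt-Nd1 (0.46), mt-Nd2 (0.52), mt-Nd4 (0.50), mt-Nd4l (0.44), mt-Nd5 (0.55) and Ndufb7 (0.38). Leaving out other tumors moved the count of 2 as well. It became 6 and 5 without transplant replicates 4 and 1 of 20 Gy with anti-PD-1, 5 without primary replicate 6 and 4 without primary replicate 5 of 0 Gy with isotype, 4 without primary replicate 6 of 0 Gy with anti-PD-1 and 4 without primary replicate 1 of 20 Gy with isotype. Limma voom called 4 members, among them Ndufb7.

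Among the nuclear core, differences were small. Ndufs3, which joins the quinone module to the rest of the arm, had a log2 difference of 0.16, Ndufv2, a cluster-bearing partner of Ndufv1, 0.16, Ndufs8 and Ndufs7, which hold the clusters next to quinone, 0.13 and 0.13, Ndufv1 0.03 and Ndufs1 -0.09. No core member reached the threshold. The accessory subunits of the matrix arm ranged from -0.07 (Ndufa2) to 0.26 (Ndufs4, the subunit lost in a form of Leigh syndrome). Apart from Ndufs5, those of the membrane arm ranged from -0.20 (Ndufc1) to 0.35 (Ndufb7, adjusted p = 0.0550). Ndufab1 had 0.04 (adjusted p = 0.802).

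**Figure D3:**
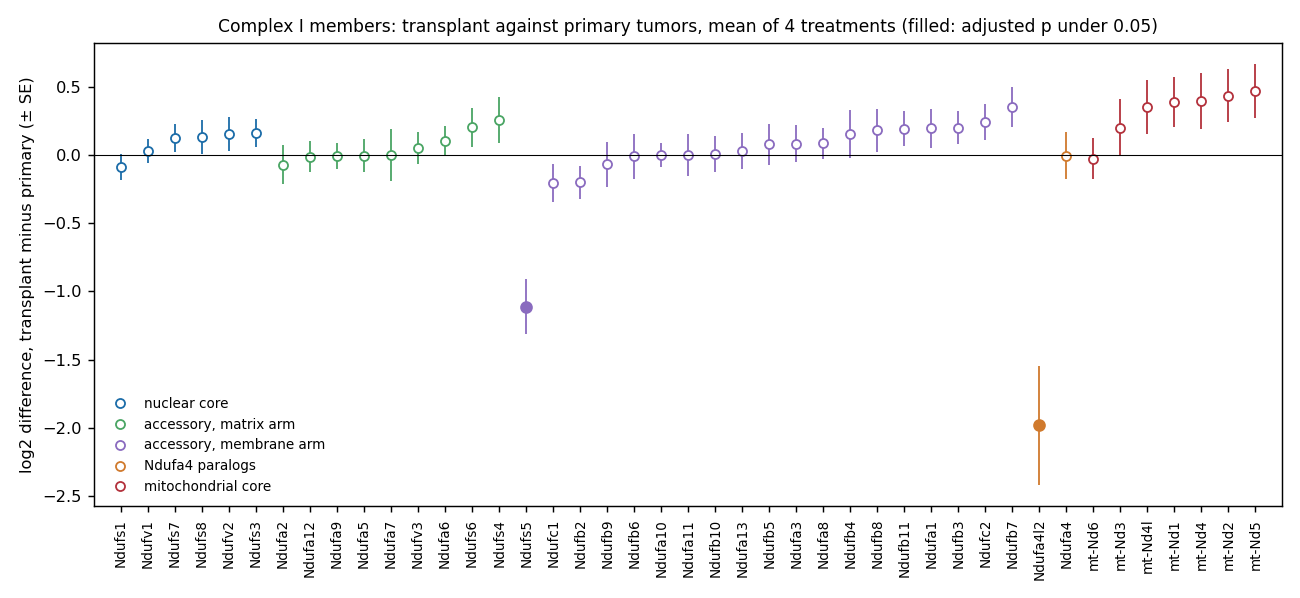
Log2 difference between transplant (n = 16) and primary (n = 32) tumors for 43 members, as the mean over 4 treatments, with lines for 1 SE, color for the role and filled points for an adjusted p under 0.05. Ndufs5 (-1.11) and Ndufa4l2 (-1.98) are the filled points, and 6 of 7 mitochondrial members lie above 0.

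Related lists gave similar small counts. Of the assembly factors 0 were higher and 1 of 16 lower (Acad9, -0.24), of complex II 0 of 4 were called, of complex III 1 of 9 was higher (Uqcrh, 0.41), of the general subunits of complex IV 0 of 10 were called, and of complex V 1 of 15 was lower (Atp5b, -0.32). Among the 6 other protein-coding genes of mitochondrial DNA, 0 were called, with a median of 0.23. Of the genes for complexes II and IV and of these mitochondrial genes, 0, 0 and 1 had an unadjusted p under 0.05. Genes of mitochondrial biogenesis gave 2 of 14 higher, the nuclear receptor Esrra (0.29) and the RNA-binding Fastkd2 (0.29).

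The models were then compared within each treatment, where no tumor is shared between comparisons. With 0 Gy and isotype, only Ndufs5 of the 44 members was called (log2 difference -1.50, SE 0.42, adjusted p = 0.0159), beside 10.3% of all genes. Ndufa4l2 was at -2.07 (adjusted p = 0.125) and mt-Nd1 at 0.84 (adjusted p = 0.125). In this comparison all 11 muscle markers were positive, with a median of 2.13, 0 at an unadjusted p under 0.05 and summed levels of 63.3 to 5909 CPM in primary tumors and 80.1 to 20190 CPM in transplants. All 6 adipocyte markers had an unadjusted p under 0.05, 5 of them positive, with a median of 2.99, and Ucp1 was called lower (-4.61). With Acta1 as a covariate the median over the mitochondrial members was 0.66 in place of 0.74, and the part of fat cells was not tested. The count was 0 without transplant replicate 2 or 3 and 3 without primary replicate 6, when mt-Nd1 (1.10) and mt-Nd2 (1.16) joined. With 20 Gy and isotype, Ndufs5 alone was called again (-1.40, SE 0.41, adjusted p = 0.0376), beside 4.87% of all genes.

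That call was fragile. The count was 0 without any 1 of the 4 transplants or without primary replicate 1, 3, 4 or 5, and 2 without primary replicate 6, 7 or 8, when Ndufb2 was also lower (-0.88 to -0.84). With anti-PD-1, 0 members were called by edgeR after 0 Gy, beside 7.35% of all genes, and 0 after 20 Gy, beside 6.76%. At an unadjusted p under 0.05 there were 0 and 3. Limma voom called 0 and 0, and DESeq2 called 0 and 1, the latter being Ndufa4l2. Ndufs5 was at -0.65 (adjusted p = 0.355) after 0 Gy and -0.89 (adjusted p = 0.165) after 20 Gy, and Ndufa4l2 at -0.68 (adjusted p = 0.694) and -2.34 (adjusted p = 0.0973). After 20 Gy with isotype Ndufa4l2 was at -2.84 (adjusted p = 0.0633), its lowest value over the 4 treatments. These values rested on single tumors. After 0 Gy with anti-PD-1 the difference was -1.36 without transplant replicate 3 and -0.44 to -0.41 without transplant replicate 2 or 4 or primary replicate 3. It was -1.57 without primary replicate 3 of 20 Gy with isotype and -1.43 without primary replicate 5 of 20 Gy with anti-PD-1, the tumors of highest Ndufa4l2. With Ndufs5 and BC002163 summed, the 4 differences were 0.10 and 0.18 after 0 Gy with isotype and anti-PD-1, and -0.25 and -0.00 after 20 Gy.

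Radiation was compared as 20 Gy against 0 Gy under isotype antibody, in primary tumors. mt-Nd6 was the single member that rose. Its level was 108.2 CPM in the lowest, 221 in the median and 327 in the highest unirradiated tumor, and 224, 385 and 577 CPM after 20 Gy, so that the groups overlapped between 224 and 327 CPM. The log2 difference was 0.84 (SE 0.24, edgeR adjusted p = 0.0128). The other 6 mitochondrial members had differences of 0.02 (mt-Nd3) to 0.28 (mt-Nd2), and none passed the threshold. In all 1 of 44 members was higher and 0 were lower, with 5 at an unadjusted p under 0.05, beside 18.3% of all genes called, 9.19% higher and 9.1% lower.

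mt-Nd6 had 13.1 to 58.2 counts per 100 counts of mt-Nd5 in the unirradiated primary tumors (median 29.3) and 29.6 to 85.8 after 20 Gy (median 37.1), with wide overlap. With the combination of 20 Gy and anti-PD-1, its level was 180, 282 and 371 CPM in the lowest, median and highest primary tumor, with a log2 difference of 0.35 from the same controls (adjusted p = 0.326). In transplants mt-Nd6 had 295, 314, 194 and 420 CPM after 0 Gy with isotype and 348, 171, 275 and 188 CPM after 20 Gy with isotype. These groups overlapped, and the log2 difference was -0.32 (SE 0.34, adjusted p = 0.816). Markers of muscle had a median difference of 2.21 in the irradiated primary tumors, with 0 of 11 called by edgeR and 2 at an unadjusted p under 0.05, while 4 of 6 cell-cycle genes were lower. Of the macrophage markers 5 of 6 were at an unadjusted p under 0.05, Cd68 (0.67) and C1qa (0.83) passed the adjusted test, and their summed level was 1344 to 2460 CPM before and 1601 to 3199 CPM after radiation. The mt-Nd6 difference passed the test with Acta1 or the muscle list as a covariate as well, and the part of dividing cells and macrophages in it was not tested.

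**Figure D4:**
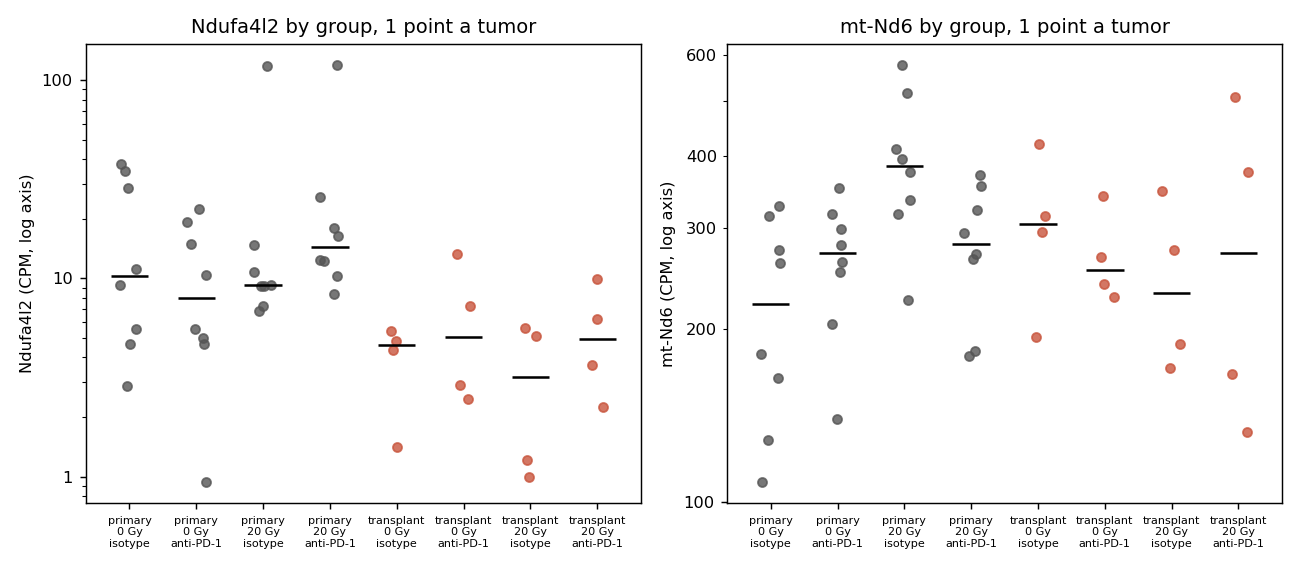
Ndufa4l2 (left) and mt-Nd6 (right) in CPM on log axes, 1 point for each tumor and a bar at the median of each group of 8 primary or 4 transplant tumors. The transplants of Ndufa4l2 stay at or below 13.3 CPM, and the irradiated primary tumors with isotype antibody have the highest median of mt-Nd6, at 385 CPM.

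Nuclear members after radiation lay near or short of the threshold. Ndufs1 had 62.1, 81.5 and 101.8 CPM in the lowest, median and highest unirradiated primary tumor and 34.9, 60.2 and 89.2 CPM after 20 Gy, with overlap. Its log2 difference was -0.42 (SE 0.16, adjusted p = 0.0525), and -0.48 with an adjusted p of 0.0175 with Acta1 as a covariate. Ndufv1 was at -0.31 (adjusted p = 0.133), while Ndufb2 was at 0.47 (adjusted p = 0.0913) and Ndufb9 at 0.55 (adjusted p = 0.148). Over the nuclear members 31 of 37 differences were positive, with a median of 0.18 beside -0.01 over all genes. The count of 1 became 3 without replicate 7 of the unirradiated tumors (Ndufs1 and Ndufb2 added). It became 2 without replicate 5 of them or without replicate 2, 4, 7 or 8 of the irradiated tumors, with Ndufs1 or Ndufb2 added.

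In transplants, radiation gave differences below 0 for all 44 members, of which 0 passed the edgeR test and 0 had an unadjusted p under 0.05, beside 1.92% of all genes called. Limma voom and DESeq2 called 0 as well. The median was -0.32 over nuclear and -0.75 over mitochondrial members, beside -0.03 over all genes. Most members rose and fell together across tumors, so the 44 signs are not independent of each other. mt-Nd1 had 1439, 1191, 1247 and 2170 CPM after 0 Gy with isotype and 915, 973, 887 and 677 CPM after 20 Gy, so that these small groups did not overlap. Its log2 difference was -0.81 (SE 0.43, adjusted p = 0.463) and did not pass the test. Between the same tumors, 0 of 11 muscle markers had an unadjusted p under 0.05, with a median difference of -0.67. Adipocyte markers lay lower, 6 of 6 being negative and 5 at an unadjusted p under 0.05, with a summed level of 0.119 to 139.1 CPM after 0 Gy and 0.127 to 4.41 CPM after 20 Gy. Of the macrophage markers 5 of 6 were positive, with a median of 0.79, 3 at an unadjusted p under 0.05 and a summed level of 1311 to 1941 CPM after 0 Gy and 2286 to 3592 CPM after 20 Gy. None of these markers passed the adjusted test. With Acta1 as a covariate the mitochondrial median was -0.72, and the part of fat cells and macrophages was not tested.

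The change under radiation was also compared between the models. Of the 44 members 0 had an interaction that passed, beside 0.00517% of all genes (1 gene), and 4 had an unadjusted p under 0.05. Limma voom and DESeq2 called 0. The largest was that of mt-Nd6, with a log2 difference of differences of -1.16 (SE 0.42, unadjusted p = 0.00886, adjusted p = 0.467). That radiation acted differently on mt-Nd6 in the models was therefore not shown, although it passed the test in primary tumors alone.

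Anti-PD-1 without radiation changed 0 members in primary tumors and 0 in transplants, beside 0% of all genes in both by edgeR. At an unadjusted p under 0.05 there was 1 member in primary tumors, Ndufs5 at -0.75 (SE 0.32), and 0 in transplants. The pseudogene BC002163 was at 0.53 (SE 0.44) in the same primary tumors. The sum of both was 27.3 to 66.0 CPM (median 48.7) with isotype and 33.3 to 56.8 CPM (median 39.1) with anti-PD-1. The division of reads between the gene and its copy was not tested. After the combination of 20 Gy and anti-PD-1, 0 members were called in primary tumors, beside 18.8% of all genes, and 0 in transplants, beside 4.41%. At an unadjusted p under 0.05 there were 0 in both. Limma voom and DESeq2 called 0 members in all 4 of these comparisons. In primary tumors the combination had a median of 0.43 over the mitochondrial members, led by mt-Nd3 at 0.67 (adjusted p = 0.167). The level of mt-Nd3 is low and uncertain because of its nuclear copy. It had a median of 0.481 CPM in the controls and 0.468 CPM after the combination, where replicate 4 was highest at 2.16 CPM. Markers of other cells moved in the same comparison. All 11 muscle markers were positive and at an unadjusted p under 0.05, with a median of 2.86 and 0 called by edgeR, and their summed level was 63.3 to 5909 CPM in the controls and 14.4 to 79578 CPM after the combination. The muscle isoforms of complex IV Cox7a1 (2.14) and Cox6a2 (2.65) and the macrophage markers Cd68 (0.79) and Cd14 (0.76) rose, as 2 of 3 and 2 of 6 of their lists. Of the adipocyte markers 5 of 6 were positive and 0 were called, and of the cell-cycle genes 5 of 6 fell, with a median of -0.76. With Acta1 as a covariate the mitochondrial median was 0.35, and the part of the other cells was not tested. The radiation, anti-PD-1 and combination comparisons of a model share its 0 Gy isotype controls, so they are not independent of each other.

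Muscle content was followed by fitting the log2 level of each gene on that of Acta1 within the 8 groups. The mitochondrial members rose with Acta1, apart from mt-Nd6, and the nuclear members mostly did not. Of the 44 members 8 were called with a positive slope and 0 with a negative one, with 11 at an unadjusted p under 0.05, beside 19.5% of all genes called, 10.2% with a positive and 9.31% with a negative slope. The slopes, as log2 units for each log2 unit of Acta1, were 0.12 for mt-Nd4 and mt-Nd2, 0.11 for mt-Nd4l and mt-Nd5 and 0.10 for mt-Nd3 and mt-Nd1, with edgeR adjusted p from 0.00156 to 0.0157. mt-Nd6 had 0.00 (SE 0.03, adjusted p = 0.933).

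Of the nuclear members, Ndufa10, a membrane-arm accessory subunit, had 0.04 (adjusted p = 0.0445) and Ndufs1 0.04 (adjusted p = 0.0499), and the median of all 37 was -0.01, the same as over all genes. For comparison, the list of 11 muscle markers holds Acta1 itself, whose own slope was fixed in advance. All 11 rose with Acta1, with a median slope of 0.97. So did the muscle isoforms of complex IV, Cox8b (0.93), Cox6a2 (0.68) and Cox7a1 (0.29), and the coactivator Ppargc1a (0.25). Of complex III 0 of 9, of complex V 0 of 15 and of the general complex IV subunits 0 of 10 rose by edgeR, with 1, 1 and 2 at an unadjusted p under 0.05. Of the 6 other mitochondrial genes, mt-Cytb (0.10) and mt-Atp6 (0.08) rose. Of the 12 hypoxia genes, 7 fell with Acta1, and 5 of 6 adipocyte markers rose with it.

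The slopes of the mitochondrial members rested in part on 1 tumor. Replicate 4 of the primary tumors given 20 Gy with anti-PD-1 had the highest Acta1 and a mean of 7.95 over the mitochondrial members on the log2 CPM scale. Without it, 1 member was called, mt-Nd2 with a slope of 0.09 (adjusted p = 0.0337), and the slope of mt-Nd1 was 0.08. In fits of each model alone, chosen after seeing the data, 6 members were called in the 32 primary tumors and 0 in the 16 transplants by edgeR. In the transplants alone the mitochondrial slopes ran from 0.06 (mt-Nd3) to 0.10 (mt-Nd4), apart from mt-Nd6 at -0.014. Whether slopes differ between the models was not tested. Over the 48 tumors, as a description, the mean of the mitochondrial members had r = 0.51 and that of the nuclear members r = 0.0017 with Acta1.

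**Figure D5:**
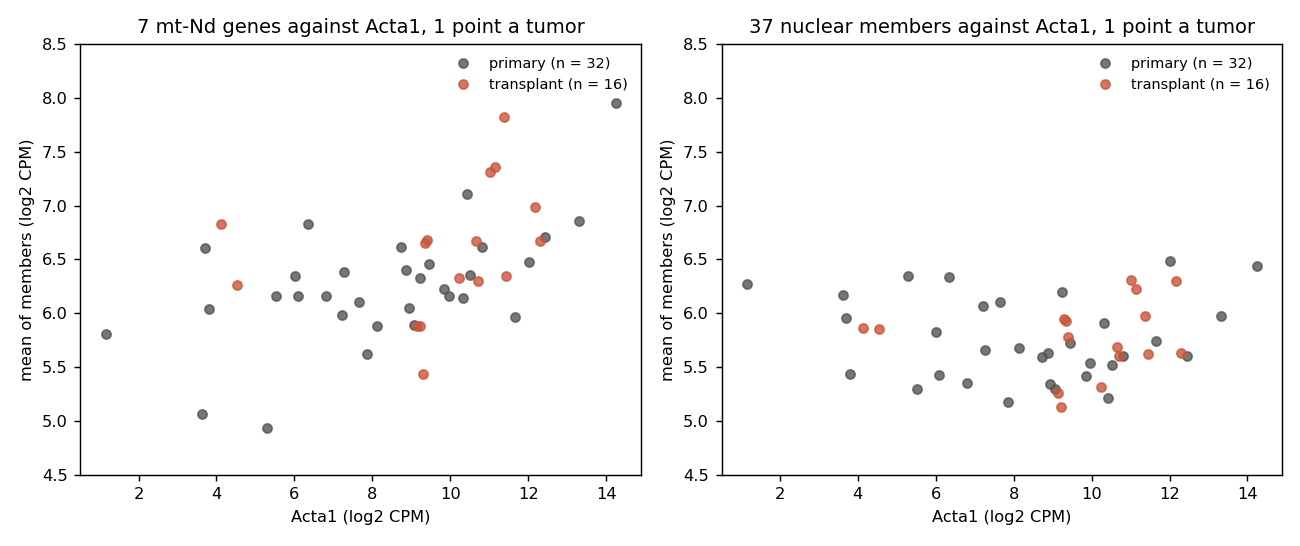
Mean log2 CPM of the 7 mitochondrial (left) and 37 nuclear (right) members against Acta1 in log2 CPM, 1 point for each of 32 primary (gray) and 16 transplant (orange) tumors. The mitochondrial means reach from 4.93 to 7.95, with the tumor of highest Acta1 (14.24) at 7.95, and the nuclear means reach from 5.13 to 6.49 with no visible trend.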

How the data were processed

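Libraries of polyadenylated RNA from tumors (RNA integrity above the study's minimum) were made with a stranded kit. The authors deposited raw counts per gene. According to the submitters' processing notes and the methods, reads had been trimmed (Trimmomatic 0.36), mapped to mm10 by STAR and counted on GENCODE genes by the HTSeq scheme; use of the strand is not given in the sources used here. Symbols, coordinates and exon lengths came from GENCODE M21 on the same build (37408 of 37469 rows matched).

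From the counts, edgeR 4.0.16 (R 4.3.3) was run over 48 tumor libraries with TMM scaling, filterByExpr by group, robust quasi-likelihood fits of 8 group means, and Benjamini-Hochberg adjustment over 19327 genes at 0.05. CPM are scaled by TMM, and log2 CPM use a prior count of 2. An SE is the size of the fold change over the square root of F. Fits were tested on simulated data. Alternatives were other size factors, scaling without mitochondrial genes, no filter, limma 3.58.1 voom, DESeq2 1.42.0, muscle covariates, separate groups and leaving out each tumor. Copies were sought with blastn 2.17.0 at 95% identity over 100 bases. Groups came from the labels. Replicate numbers follow accession order and pair nothing.

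Named were the mitochondrial and nuclear core members, both Ndufa4 genes, Ndufab1, Acta1 and up to 5 called members in each direction of a comparison; others, such as Ndufb7 and Ndufb9, were chosen after their values were seen. Members and lists were chosen with earlier results of these data known. The values of 1 member are not reported here.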

Additional observations from a re-analysis of the deposited data

Results flagged for a closer look

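Over 56 groups of 4 to 8 tumors, a single tumor stood apart from its group by Dixon's criterion 5 times. Chance gives about 1 in 20 groups. The groups hold the same tumors for several quantities, and mt-Nd1 is part of the mitochondrial mean, so they are not independent. Primary replicate 4 of 20 Gy with anti-PD-1 was the highest of its group in the mean of the mitochondrial members (7.95 log2 CPM) and in mt-Nd1 (11.53 log2 CPM). For Ndufa4l2, primary replicate 3 of 20 Gy with isotype (6.89 log2 CPM) and primary replicate 5 of 20 Gy with anti-PD-1 (6.91 log2 CPM) were high, and transplant replicate 1 of 0 Gy with isotype (0.54 log2 CPM) was low. Outside the comparisons, the mitochondrial members took 0.883% of counts in the tumor library and 1.01% in the cell line library of 402230. The 8 unirradiated primary tumors with isotype antibody had 0.107% to 0.668%, and all 48 tumors had 0.107% to 0.989%.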

How the results depend on the processing

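Ndufa4l2 and Ndufs5 stayed lower in transplants, as the mean over treatments, under every single-tumor omission and under each alternative but the sum of Ndufs5 with BC002163, which gave 0.0037 (0.10 and 0.18 after 0 Gy with isotype and anti-PD-1). The count of members called in that comparison was 4 with limma voom and 2 to 9 with single tumors left out. With 0 Gy and isotype it was 2 with DESeq2 and 0 to 3 with a tumor left out. With 20 Gy and isotype it was 2 with DESeq2-type size factors, 0 without a low-count filter, 0 with limma voom, 0 when only its own groups were fitted, 3 with DESeq2 and 0 to 2 with a tumor left out. With 20 Gy and anti-PD-1, DESeq2 called 1. For radiation in primary tumors, limma voom, DESeq2, the Acta1 covariate and the muscle list covariate each gave 2, and leaving out a tumor gave 1 to 3. For the Acta1 slope the count was 0 in the transplants alone and 1 to 10 with a tumor left out. The slope of mt-Nd6 was -0.014 in the transplants alone and ran from -0.0080 to 0.016 with a tumor left out. Causes of these changes were not tested, and the separate fits also hold fewer samples. Comparisons with 0 members called kept 0 under all alternatives, apart from the DESeq2 call named above. Of the counts under other settings, 301 stayed within 1.5 times and 41 did not. Of single genes and medians, 843 values kept their direction and call, 59 lost and 3 gained the call, and 7 changed sign, which were 3 of Ndufs5 under the sum with BC002163 and 4 of the mt-Nd6 slope. No paired analysis was possible because replicate numbers follow accession order and the labels pair no tumors. With 4 transplants a group, the spread limits what could be detected.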

Other observations

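The 2 libraries of line 402230 belong to no comparison and have no replicate. Their CPM were scaled together with the 48 tumors. In the tumor library, Ndufs1 (160.7 CPM) and mt-Nd2 (2414 CPM) lay above all 48 tumors, and Ndufa13, Ndufa4l2 (0.0223 CPM), Ndufa6, Ndufs5 (6.25 CPM) and Ndufv3 below all of them. In the cell line library, mt-Nd6 (874 CPM) lay above all 48 tumors, and Ndufs3 (43.9 CPM) and Ndufs5 (7.11 CPM) below all of them, while Ndufa4l2 stood at 9.71 CPM, within the range of the tumors. Acta1 was at 0.469 CPM in the tumor library, below the lowest of the 48 tumors (2.15 CPM). It was at 56.6 CPM in the cell line library, within their range. The names of these libraries come from their labels and were not tested.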
